A study of Mus musculus with 8 samples.

Results

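A canine gene was counted as listed only with OSCA-40 when its deposited value was 0 in the 6 libraries from serum without OSCA-40 cells and at least 2 in both libraries from serum of mice that carried them. Of 20716 canine genes in a table of 52016 genes, 38 met this rule, which is 0.183% of the canine genes. Their values were low, between 2 and 6, and 23 of the 38 stood at exactly 2 in both OSCA-40 libraries. The rule used the values of all 8 libraries, so the levels and counts below describe these libraries and carry no test.

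The study sequenced RNA from serum exosomes of immunodeficient NCr nu/nu mice, and the series title gives its purpose as finding genes in exosomes that mark osteosarcoma in dogs. OSCA-32 and OSCA-40 are cell lines grown from canine osteosarcoma, a bone cancer, and each injected mouse received 100000 cells of 1 line in 10 µl into the tibia. Control mice received the same volume of PBS, a salt solution with no cells. The 8 libraries form 4 groups of 2: serum of all mice before injection (week 0), and serum at week 8 from the PBS, OSCA-32 and OSCA-40 mice. All groups share the NCr nu/nu background, serum was pooled over mice in each group, and the labels used here give neither age, sex nor the number of mice. No label says whether the paired libraries were made from different mice or from 1 pool, so agreement between them may be technical. Each graft is a single cell line and stands for 1 line, not for canine osteosarcoma at large.

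Exosomes are small membrane vesicles that cells release into body fluids, and they carry fragments of RNA from the cell that shed them. Blood of a mouse with a graft from another species can therefore hold vesicles of both species, and sequence differences between mouse and dog allow reads to be assigned to either. Nude mice lack a thymus and with it most T cells, while their B cells, natural killer cells and myeloid cells remain, so that grafted cells of another species can grow. Genes shared between species are often close in sequence, and short reads from one can be assigned to the other; whether this happened for the 38 genes was not tested.

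The values are whole numbers that sum to between 977106 and 989183 in each library over mouse and canine genes together, so 1 unit is a very small part of a library and means nearly the same part in each. They are relative amounts, from which the number of reads cannot be recovered, so depth is unknown. A gene listed at 0 may have held an amount too small to be written as a whole number. In the 4 tumour-free libraries 14.7% to 17.4% of the total lay in canine genes, and 1068 to 1131 canine genes were listed at 1 or more. The mice of these libraries carried no dog cells, so a value at a canine gene does not by itself show RNA from a graft. The source of these values was not tested. The canine part was 44.7% and 43.3% in the OSCA-32 libraries, against 68.4% and 70.7% in those of OSCA-40. Most of the canine total lay in 1 dominant gene in each line. ENSCAFG00000030616 stood at 564602 and 582489 with OSCA-40 and at 0 and 13 with OSCA-32, and ENSCAFG00000031490 at 8 and 8 with OSCA-40 and at 324687 and 311612 with OSCA-32. In the 4 tumour-free libraries ENSCAFG00000030616 was at 0, whereas ENSCAFG00000031490 stood at 42333 to 63599, so its values are not particular to a graft. Without this pair the canine values summed to 112133 and 117222 with OSCA-40, 115272 and 113760 with OSCA-32, and 99529 to 106268 in the tumour-free libraries. As a percentage of the total without the pair, the order of the groups stayed the same. The canine part was then 26.4% and 28.8% with OSCA-40, 17.5% and 16.9% with OSCA-32, and 10.7% to 11.6% in the tumour-free libraries. The canine identifiers have no gene names in the tables used here, which leaves function and markers of the 38 genes undescribed and allows no check of the grafts by osteoblast genes. Of mouse genes that mark vesicles, the tetraspanin Cd9 was listed between 26 and 234 over the 8 libraries, and Cd63, Cd81, Tsg101 and Pdcd6ip between 2 and 15. None of them was at 0 in any library, but all were lower in both OSCA-40 libraries than in any tumour-free library. Cd9 ranged from 192 to 234 without a tumour. The OSCA-32 libraries held 106 and 117, those of OSCA-40 only 29 and 26. After scaling to the mouse total, Cd9 was at 76.3 and 73.8 in the OSCA-40 libraries, against 190 to 238 without a tumour. Pdcd6ip also stayed below its tumour-free range in both, whereas Cd63, Cd81 and Tsg101 did not. The cause was not tested.

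The highest of the 38 genes was ENSCAFG00000017117, listed at 6 in both OSCA-40 libraries and at 0 in the 2 week 0, the 2 PBS and the 2 OSCA-32 libraries. The next, ENSCAFG00000031330, stood at 5 and 4 with OSCA-40 and at 0 in the same 6 libraries. In both genes the OSCA-40 libraries lay above all others, as the rule requires. The remaining 36 genes had means of the OSCA-40 libraries from 2 to 4. In the first OSCA-40 library the 38 values had a median of 2 and a mean of 2.58, and in the second a median of 2 and a mean of 2.32. Only 5 genes reached 3 in both libraries, 1 reached 5 in both, and none reached 10 in either.

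The values of the 38 genes in the OSCA-40 libraries are given as a description, since both libraries chose them. For 26 genes the values were equal, for 10 they differed by 1 and for 2 they differed by 2. Where they differed, the first library was higher in 10 genes and the second in 2. Summed over the 38 genes the value was 98 in the first library and 88 in the second. These sums are 0.0145% and 0.0126% of all canine values of the same libraries, which total 676743 and 699719. Most of that canine total is ENSCAFG00000030616; without it the 38 genes held 0.0874% and 0.0751% of the canine values. The 38 genes therefore made almost no contribution to the canine share of the OSCA-40 libraries.

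A large number of genes lay just outside the rule. In all, 17863 canine genes were at 0 in the 6 libraries without OSCA-40, and 16166 of these were at 0 with OSCA-40 as well. Of the other 1697, 1254 were listed in 1 OSCA-40 library only and 443 in both. Among the 443, 337 stood at 1 in both, 68 at 1 in one library and 2 or more in the other, and 38 at 2 or more in both. Of the 68, 61 stood at 2 and 1, a single unit below the 23 genes at 2 and 2. A further 118 genes had 2 or more in 1 OSCA-40 library and 0 in the other, with values up to 9, higher than any of the 38. The grid of values in the OSCA-40 libraries shows the 38 genes as the corner of a distribution that thins out from 0 and 0.

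**Figure D1:**
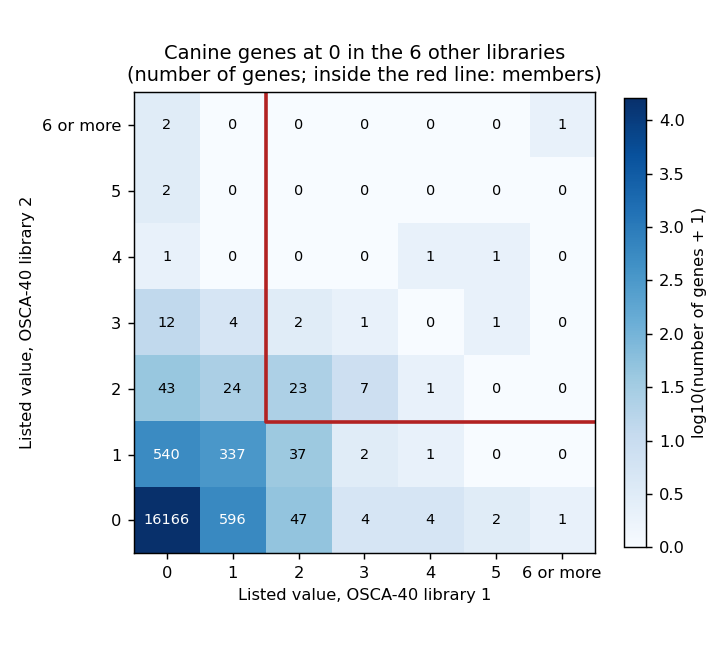
Number of canine genes at each pair of listed values in the first (x axis) and second (y axis) OSCA-40 library, for the 17863 canine genes at 0 in the other 6 libraries; the last row and column hold values of 6 or more, and colour is log10 of the number plus 1. The 38 genes lie inside the red line, 23 of them at 2 and 2, next to 337 genes at 1 and 1.

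The rule was then applied with each other group in the place of OSCA-40. No canine gene was at 2 or more in both week 0 libraries and 0 in the other 6, and the number was also 0 for PBS and 0 for OSCA-32, against the 38 with OSCA-40. With 1 or more in both libraries, 9 canine genes were listed only at week 0, 7 only with PBS, 27 only with OSCA-32 and 443 only with OSCA-40. On the values as deposited, OSCA-40 thus had the largest number of canine genes of its own at either minimum, and OSCA-32 the next largest at a minimum of 1. Counted in single libraries and wherever else they were listed, canine genes with a value of 2 or more numbered 1086 and 1029 with OSCA-40, 720 and 719 with OSCA-32 and 554 to 599 in the tumour-free libraries.

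Mouse genes did not follow that order. By the same rule 8 mouse genes were listed only with OSCA-40 (0.0256% of 31300), 6 only with OSCA-32 (0.0192%), 10 only with PBS (0.0319%) and 7 only at week 0 (0.0224%). The 8 mouse genes had means of the OSCA-40 libraries from 2.5 to 41, with a median of 5.5, whereas the 38 canine genes ended at 6 with a median of 2. Far fewer mouse genes could qualify, because 1338 were at 0 in the 6 libraries without OSCA-40. As a share of the genes at 0 in the other 6 libraries, the OSCA-40 genes were 0.213% for dog and 0.598% for mouse, and the other groups had 0% for dog and 0.455% to 0.733% for mouse. At this minimum mouse genes of 1 group alone were found in every group, and canine ones with OSCA-40 but in none of the other 3. At a minimum of 1 the order of the OSCA-40 shares turned, with 2.48% for dog (443 genes) and 1.64% for mouse (22 genes).

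**Figure D2:**
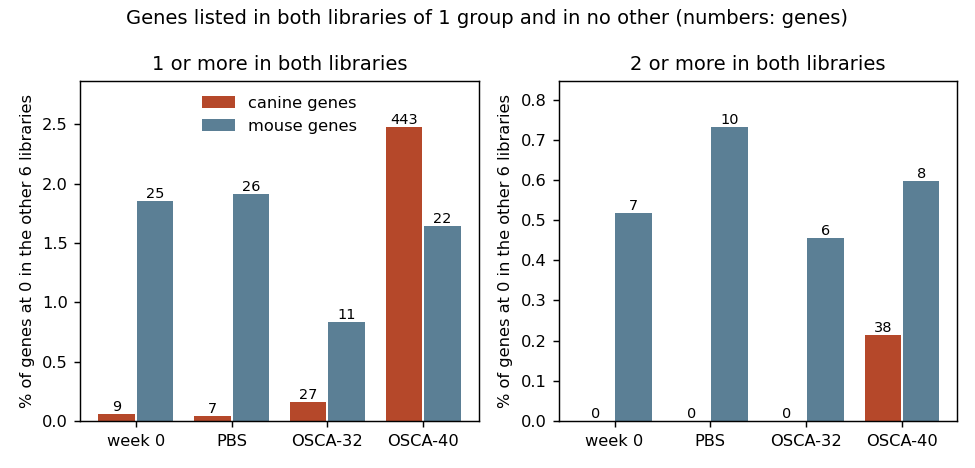
Genes listed in both libraries of 1 group and at 0 in the other 6 libraries, as a percentage (y axis) of the genes at 0 in those 6, at a minimum of 1 (left) and of 2 (right), for canine and mouse genes; numbers above the bars are genes. At a minimum of 2 the canine bars are 0, 0, 0 and 38 genes, and the mouse bars 7, 10, 6 and 8.

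The same counts can be read as shares, with canine genes taken at 2 or more in 1 library of a group and described in the other. The genes at 2 or more in both are then the 38 themselves, so this is no separate check; it shows how many genes of 1 library were not shared. Of 136 genes at 2 or more in the first OSCA-40 library and 0 in the 6 libraries of the other groups, 38 (27.9%) were at 2 or more in the second, 40 (29.4%) at 1 and 58 (42.6%) at 0. Chosen on the second library, there were 126 genes, of which 38 (30.2%) were at 2 or more in the first, 28 at 1 and 60 at 0. Most genes chosen on 1 OSCA-40 library were thus listed in the other, but fewer than 1 in 3 at 2 or more.

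Of the genes at 0 in the choosing library and in the 6 others, those at 2 or more were 60 of 16766 (0.358%) in the second library and 58 of 16820 (0.345%) in the first. For OSCA-32, none of 41 genes chosen on its first library and none of 24 chosen on its second reached 2 or more in the other; 37 and 22 of them were at 0. Mouse genes taken in the same way on the first OSCA-40 library were 21, of which 38.1% were at 2 or more and 33.3% at 0 in the second. Taken on the second they were 26, of which 30.8% were at 2 or more and 61.5% at 0 in the first. In the other 3 groups 17.6% to 27.3% of such mouse genes were at 2 or more in the other library, beside the canine shares of 27.9% and 30.2% with OSCA-40. No test is attached, since genes of 1 library are not replicates.

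Of 961 genes at 1 in the first OSCA-40 library 2.91% were at 2 or more in the second, and in the reverse direction 4.36% of 917. The shares were higher at 2, but from 2 upward the value in the choosing library gave no steady order. Of 109 genes at 2 in the first OSCA-40 library 22.9% were at 2 or more in the second, of 14 genes at 3 it was 57.1%, and of 13 genes at 4 or more it was 38.5%. In the reverse direction the shares were 31.6% of 98, 20% of 20 and 37.5% of 8 genes. The bins above 2 hold 20 genes or fewer.

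**Figure D3:**
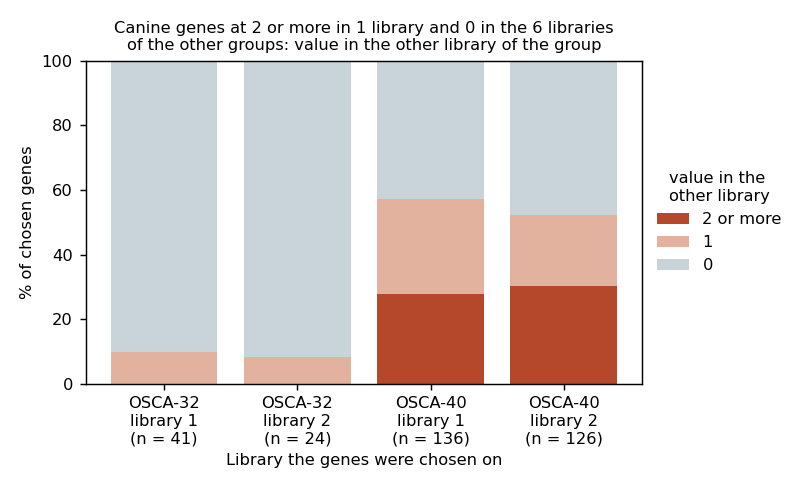
Canine genes at 2 or more in 1 library of OSCA-32 or OSCA-40 and at 0 in the 6 libraries of the other groups, split by their value in the other library of the group (y axis, percentage of the chosen genes; x axis, the choosing library with its number of genes). With OSCA-40, 27.9% and 30.2% reached 2 or more in the other library; with OSCA-32 none did.

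The 38 genes are a small part of what OSCA-40 libraries list. In all, 869 canine genes (4.19%) were at 2 or more in both OSCA-40 libraries, and the 38 genes were 4.37% of them. Of the 869, 384 were also listed in all 4 tumour-free libraries and 77 in 1 to 3 of them. The other 408 were at 0 in the 4 tumour-free libraries: 269 were listed in both OSCA-32 libraries, 101 in 1 of them and 38 in neither. Of the 101, 95 owed their place outside the rule to a single value of 1. Among the 101 was ENSCAFG00000030616, the highest canine gene of the OSCA-40 libraries.

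Whether a gene was also listed with OSCA-32 went with its level in OSCA-40. Among the 408 genes, 17.5% of the 183 with an OSCA-40 mean of 2 to under 3 were at 0 in both OSCA-32 libraries. The share was 4.59% of the 109 genes at 3 to under 5, 1.23% of the 81 genes at 5 to under 10, and 0% of the 35 genes at 10 or more. The 38 genes thus lay at the low end of these 408 genes, 32 of them in the lowest of these bins. All 408 were chosen at 2 or more in both OSCA-40 libraries, so canine genes listed lower with a tumour are not among them.

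**Figure D4:**
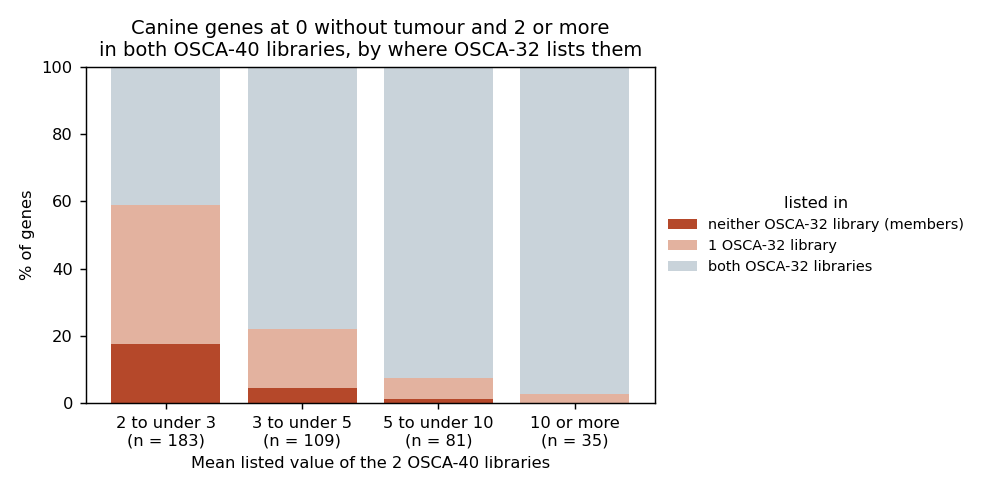
The 408 canine genes listed in none of the 4 tumour-free libraries but at 2 or more in both OSCA-40 libraries, binned by their mean OSCA-40 value (x axis, with the number of genes) and split by the number of OSCA-32 libraries that list them (y axis, percentage of the bin). The share listed in neither OSCA-32 library is 17.5% in the lowest bin and 0% in the highest.

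Among canine genes listed in no tumour-free library but with both lines, nearly all had higher values with OSCA-40. To avoid a choice on OSCA-40, the genes listed in none of the 4 tumour-free libraries but at 2 or more in both OSCA-32 libraries were taken, which were 79. None of them was at 0 in both OSCA-40 libraries, 78 had a higher mean with OSCA-40, and in 72 both OSCA-40 libraries were above both OSCA-32 libraries. Their median was 2.5 with OSCA-32 and 8.5 with OSCA-40, and the median ratio of OSCA-40 to OSCA-32 was 2.83, with quartiles of 2.35 and 3.62. Over the 314 genes at 1 or more in all 4 tumour libraries, the median ratio was 2.60. Whether this difference in level bears on the zeros of the 38 genes with OSCA-32 was not tested.

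The member count rests on single libraries and on the minimum. Without the first or the second OSCA-32 library 81 or 96 genes met the rule, and without the first or the second OSCA-40 library 126 or 136 did. Leaving out any 1 of the 4 tumour-free libraries left the number at 38. With 1 in place of 2 as the minimum 443 genes met it and with 5 a single gene, and when a value of 1 was allowed in each of the other 6 libraries there were 301.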

How the data were processed

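Per the labels' protocols, vesicles were enriched from serum with ExoQuick, RNA was isolated using the SeraMir kit, and libraries were stranded SMARTer pico-input ones. The submitters' processing notes list kallisto 0.43.0, Trimmomatic 0.33.0, FastQC 0.11.5, CanFam3.1 and GRCm38.p5; the index, annotation and filters behind the table are not given in the sources. The deposited values were treated as a score, because their library sums are nearly equal (977106 to 989183), as for TPM made whole, whether by rounding or by truncation is not known; they keep no depth, so no interval or floor is given.

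Genes were selected and counted in Python 3.11.15 with pandas 2.3.3 on the values as deposited: 0 in 6 libraries and at least 2 in both OSCA-40 libraries. The selection recovered 200 of 200 genes planted in simulated data. These were planted to meet the rule, so the recovery checks only that the code applies it. The members, the rule and the comparisons were chosen with earlier results of these data known. By the rule for named genes, without canine gene names only the 2 members with the highest mean are named; ENSCAFG00000030616 and ENSCAFG00000031490 were named after their values were seen. For the 20716 canine identifiers the tables used here pair 0 with a name, and no sequence was found, so the gene lists drawn up could not be counted.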

Additional observations from a re-analysis of the deposited data

How the results depend on the processing

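No paired analysis was possible because no result here comes from a fitted test. The number of member genes was 38, and 443, 1 and 0 with minimums of 1, 5 and 10, and 301 with up to 1 allowed in the other 6 libraries. After rescaling to the total without the 2 canine genes of highest mean, or to the mouse total, a listed 1 in the OSCA-40 libraries exceeds 2, and 443 genes met the rule in either case. Leaving out 1 library gave 38 to 136 members, and could not give fewer than 38 because it only relaxes the rule. By the same rule at a minimum of 1, week 0, PBS and OSCA-32 had 9, 7 and 27 canine genes in place of 0, and with 1 library left out, chosen after seeing the data, 0 to 5, 0 to 4 and 0 to 41. With minimums of 5 and 10 their number was 0, which follows from 0 at a minimum of 2. The 8 mouse genes became 22, 4 and 2 with minimums of 1, 5 and 10, and 8 to 26 with 1 library left out, likewise chosen after seeing the data. The members' mean share of canine values in OSCA-40 libraries was 0.0135%, and 0.0812% without the highest canine gene. Their median level of 2 became 5.47 on the scale of the mouse total and was 2 without either OSCA-40 library. A value of 2 is close to the smallest that can be listed, and at unknown depth the counting error of such values cannot be given.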
